A study of Mus musculus with 6 samples.

Results

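Integrin, laminin and collagen genes were examined as the receptors and the fibrous and sheet-forming proteins of the extracellular matrix. The members were chosen by symbol alone, as the numbered integrin alpha and beta chains, the laminin alpha, beta and gamma chains and the collagen alpha chains, with no condition on their level. They numbered 73 of 24421 genes, namely 11 integrin alpha, 7 integrin beta, 11 laminin and 44 collagen chains. Of these, 67 had a mean of at least 0.5 CPM (read counts scaled to a common library size) over the 6 libraries and were tested.

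RNA was sequenced from astrocytes of the hippocampus of C57BL/6 mice of the genotype Siglechdtr/dtr, which carry the receptor for diphtheria toxin (DT) in the Siglech gene of microglia. The mice, adult males of 8 to 16 weeks by the study's methods, received PBS or DT (50 µg/kg, intraperitoneally), and astrocytes were taken 2 days later. CD11b+ cells were first removed on magnetic beads, and cells with astrocyte cell surface antigen-2 were then selected. Each group held 3 libraries, each from the pooled hippocampi of 2 mice, from 3 independent experiments. PBS and DT mice all carried both altered Siglech alleles, which by the study lower Siglec-H itself, and mice without the DT receptor gene were not analysed here.

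Between 21704891 and 32933975 reads per library were assigned to genes. Siglech was read 21 to 71 times in the PBS libraries and had no read in any DT library. The 15 astrocyte markers summed to 37523 to 38885 TPM (a level per gene length, scaled to a common sum) after PBS and to 36395 to 38740 TPM after DT, with none called. All 20 microglia markers lay lower after DT and 9 were called, with sums of 353 to 456 TPM and 209 to 233 TPM. Of 16 leukocyte markers in the table, 7 were at 0 in every library, among them Cd3e, Ms4a1 and S100a8. Because these are bulk samples, fewer cells of a type and less RNA per cell cannot be told apart.

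Integrins are receptors made of an alpha and a beta chain that bind matrix outside the cell and the actin skeleton inside it. Laminins are trimers of an alpha, a beta and a gamma chain, and together with the network-forming collagen IV they build the basement membrane. In the brain, astrocyte endfeet rest on such a membrane around blood vessels and below the meninges, while most other collagens belong to vessels, meninges and the choroid plexus.

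The 6 collagen IV genes lie in 3 head-to-head pairs, each transcribed outward from a shared stretch. Parts of these stretches are shown because the levels within a pair were compared. In the GENCODE M21 annotation of mm10, the first exons of Col4a1 (minus strand) and Col4a2 (plus strand) on chromosome 8 overlapped by 22 bases. Between Col4a4 and Col4a3 on chromosome 1 there were 71 bases, and between Col4a6 and Col4a5 on the X chromosome 1308 bases. Promoters from 250 bases before to 50 after the start, from RefSeq on GRCm38.p6, were matched for 53 of the 73 members and for 5 of these 6 genes. The windows of Col4a1 and Col4a2 had 0 bases outside annotated exons, so nothing is printed for that pair. Of the 1308 bases between Col4a6 and Col4a5, only the 250 and 216 next to these genes are printed. The parts outside annotated exons are printed 5′ to 3′ on the strand of the gene, with capitals for the letters GGGCGG (GC box) or CCAAT or their reverse complements. The first is chr1:82586850-82586920 (minus), the second chrX:141474077-141474326 (minus) and the third chrX:141475169-141475384 (plus).
Col4a4: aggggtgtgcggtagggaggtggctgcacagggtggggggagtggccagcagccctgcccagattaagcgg
Col4a6: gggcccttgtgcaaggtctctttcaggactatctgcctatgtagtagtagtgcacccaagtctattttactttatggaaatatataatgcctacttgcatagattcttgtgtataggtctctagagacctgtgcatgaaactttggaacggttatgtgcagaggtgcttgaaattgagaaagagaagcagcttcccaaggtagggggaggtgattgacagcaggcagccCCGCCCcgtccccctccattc
Col4a5: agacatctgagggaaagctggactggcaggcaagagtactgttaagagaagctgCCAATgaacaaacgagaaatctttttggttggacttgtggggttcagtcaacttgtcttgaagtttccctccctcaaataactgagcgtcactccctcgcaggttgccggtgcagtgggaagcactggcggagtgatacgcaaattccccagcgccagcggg

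Over the whole window of 300 bases, Col4a2 held 3 GC boxes, Col4a1, Col4a5 and Col4a6 held 1 each and Col4a4 held 0, where 35.7% of 32851 RefSeq promoters held at least 1. A CCAAT match was found once each for Col4a1, Col4a2 and Col4a5 and in 37.4% of all promoters. None of the 5 windows held TATAAA, which 13.6% of all promoters did. CpG pairs numbered 37 for Col4a1 and 33 for Col4a2, at percentiles 94.4 and 91.4 of all promoters, and 14 for Col4a4, 11 for Col4a5 and 3 for Col4a6, the last at percentile 23.3. The windows of Col4a1 and Col4a2 were the richest in CpG of the 5, and these genes were also the most expressed collagen IV chains.

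Col4a1 and Col4a2 encode the chains of the collagen IV network found in nearly every basement membrane. Col4a1 stood at 96.4, 79.1 and 115 TPM in PBS replicates 1 to 3 and at 74.0, 81.2 and 99.4 TPM in DT replicates 1 to 3. Col4a2 stood at 50.0, 46.1 and 63.7 TPM after PBS and at 41.2, 46.2 and 53.7 TPM after DT. The groups overlapped for both genes, with log2 fold changes of -0.20 (95% interval -0.53 to 0.14) and -0.19 (-0.49 to 0.11). Both levels moved together from library to library, so the ratio of Col4a1 to Col4a2 only ranged from 1.71 to 1.93 over the 6 libraries.

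Col4a5 and Col4a6, whose chains join in the basement membranes of smooth muscle and some epithelia, had unlike levels. Col4a5 lay between 15.6 and 18.6 TPM and Col4a6 between 2.34 and 2.82 TPM, with a ratio of 5.67 to 7.95. Col4a3 and Col4a4, best known from the kidney, lay between 1.17 and 2.69 TPM and between 0.954 and 2.11 TPM, with a ratio of 0.743 to 2.60 from 57 to 237 reads per gene and library. In none of these 4 genes did the groups lie apart. The pair that shares the overlapping start thus had the narrowest ratio, which is a description of 3 pairs that also differ in depth. Exact permutation tests of the ratios gave two-sided p = 0.9 for Col4a1 to Col4a2, p = 1 for Col4a3 to Col4a4 and p = 0.6 for Col4a5 to Col4a6.

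**Figure D1:**
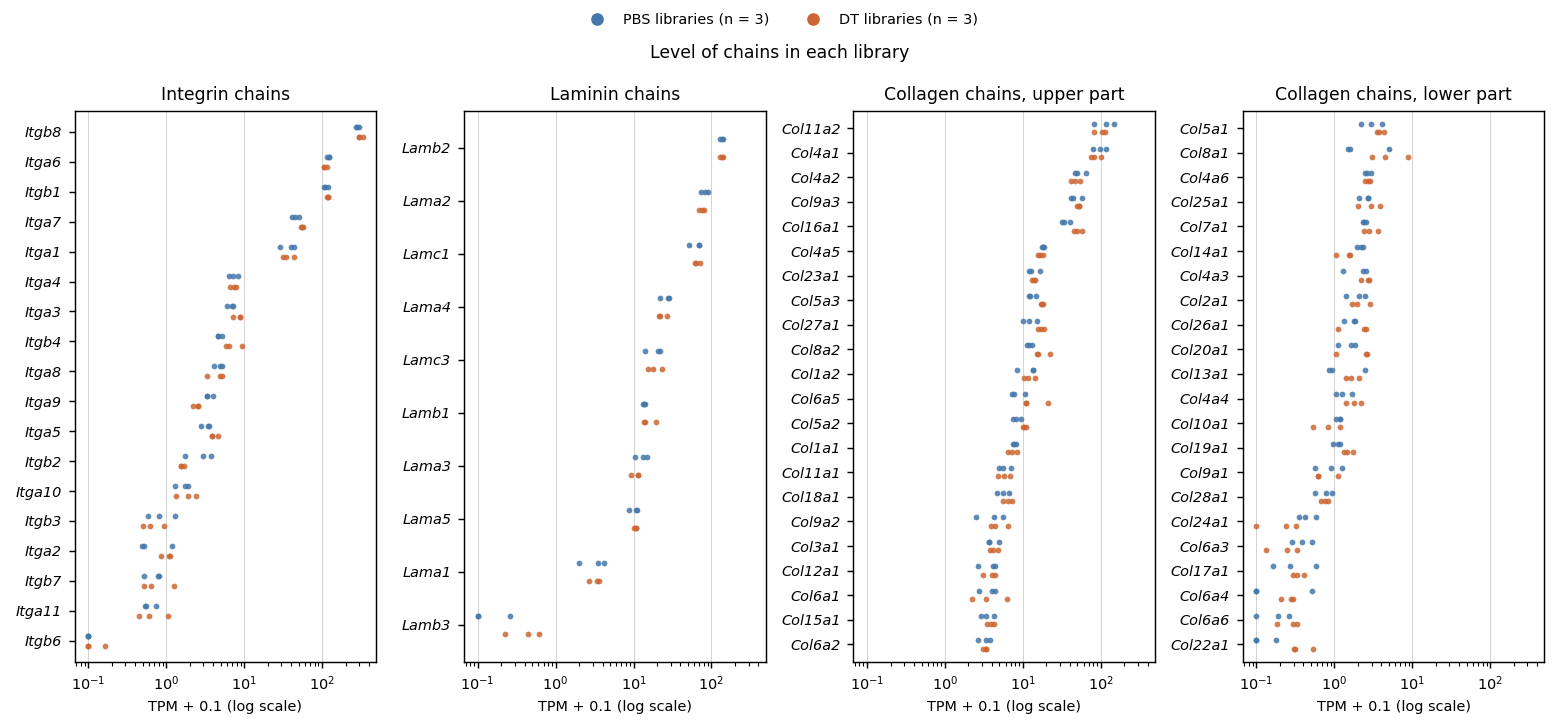
Level of the chains in each library, as TPM + 0.1 on a log axis, with PBS libraries in blue and DT libraries in orange (n = 3 each). Itgb8, Lamb2, Itga6 and Itgb1 stood at over 100 TPM in every library, and most collagens lay under 10 TPM.

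The libraries held a small set of integrin chains at high level. Itgb8, on chromosome 12 from 119158022 to 119238802 (minus strand), encodes the beta chain that with the alpha-v chain binds and activates latent TGF-beta, and it was the most expressed of the 73 members. Its level was 299.7, 269.6 and 280.2 TPM after PBS and 330.4, 302 and 296 TPM after DT. The groups overlapped, and after PBS it stood above 97.1% of the genes tested. Its log2 fold change was 0.11 (interval -0.06 to 0.29). Itgav, the alpha-v chain, is no member by its symbol and lay between 173 and 206 TPM, or 0.615 to 0.691 times Itgb8.

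Itga6 and Itgb1, which together make a laminin receptor, came next and could not be ordered, since their ranges overlapped. Itga6 stood at 124, 122 and 117 TPM after PBS and at 116, 107 and 105 TPM after DT. Itgb1, the partner of most alpha chains, stood at 110.4, 105 and 120.2 TPM after PBS and at 120.3, 115 and 120.1 TPM after DT. In TPM every DT library lay below every PBS library for Itga6, but in CPM the groups overlapped, and its log2 fold change of -0.16 (standard error 0.07) did not pass the threshold (limma, adjusted p = 0.489). Oligodendrocyte lineage markers lay at 763 to 875 TPM after PBS and 661 to 736 TPM after DT, with 10 of 13 lower and 0 called. Endothelial markers were lower in 15 of 15 (0 called) and microglia markers in 20 of 20 (9 called). The part of any of these cell types in this difference was not tested. The ratio of Itga6 to Itgb1 was 1.09 ± 0.102 (SD, n = 3) after PBS and 0.922 ± 0.0488 (SD, n = 3) after DT, with no overlap (exact permutation test, two-sided p = 0.1, the smallest that 3 against 3 can give).

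Below these lay Itga7, another laminin receptor chain, and Itga1, a receptor chain for collagen IV. Itga7 stood at 50.2, 44.4 and 41.3 TPM after PBS and at 56.8, 54.5 and 54.1 TPM after DT, so the groups did not overlap. The log2 fold change was 0.27 (standard error 0.09), with an adjusted p of 0.341 from limma. Itga1 varied from 28.4 to 43.5 TPM after PBS and from 31.3 to 43.0 TPM after DT. The other alpha chains, among them the collagen receptors Itga2, Itga10 and Itga11, the fibronectin receptor chain Itga5 and Itga4, a chain for VCAM-1 and fibronectin, were all at or under 8.85 TPM.

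Itga9, on chromosome 9 from 118606690 to 118901003 (plus strand), whose product binds tenascin-C among other ligands, had the smallest p of the integrins. It stood at 3.85, 3.28 and 3.25 TPM after PBS and at 2.49, 2.47 and 2.1 TPM after DT, from 114 to 256 reads per library. Every DT library lay below every PBS library. The log2 fold change was -0.55 (standard error 0.15), which missed the threshold over all genes (limma, unadjusted p = 0.00643, adjusted p = 0.249).

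Itgb4, the beta chain that pairs only with the Itga6 product and anchors epithelial cells to laminin, had its higher levels after DT. It stood at 5.08, 4.56 and 4.50 TPM after PBS and at 6.28, 5.83 and 9.32 TPM after DT, again without overlap, with a log2 fold change of 0.55 (standard error 0.18) and an adjusted p of 0.349 from limma. Without DT replicate 3 the fold change was 0.35. Its highest value was that of DT replicate 3, where the 12 ependymal markers summed to 1629 TPM, against 984 and 1020 TPM in the other DT libraries and 757 to 919 TPM in the PBS libraries. The mural cell, fibroblast and neuron marker sums were also highest in DT replicate 3, at 1551, 543 and 468 TPM, and those of the remaining lists in other libraries. All 12 ependymal markers had fold changes above 0, and 0 were called. The part of any of these cell types in the level of Itgb4 was not tested. The ratio of Itga6 to Itgb4 was 25.7 ± 1.17 (SD, n = 3) after PBS and 16 ± 4.16 (SD, n = 3) after DT, with no overlap (exact permutation test, two-sided p = 0.1).

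Itgb2, the beta chain of leukocytes and microglia, was barely present. Its level was 1.67, 2.87 and 3.64 TPM after PBS and 1.46, 1.44 and 1.61 TPM after DT, from 34 to 92 reads per library. The groups did not overlap, and the log2 fold change of -0.76 (standard error 0.30) had an adjusted p of 0.434 from limma. Its microglial partner Itgam, which encodes the CD11b used for the depletion and is no member by its symbol, fell from 7.69, 11.2 and 11.0 TPM to 1.01, 0.886 and 1.46 TPM, a log2 fold change of -3.09 (standard error 0.23, limma, adjusted p = 0.000704). The ratio of Itgam to Itgb2 was therefore 3.01 to 4.61 after PBS and 0.614 to 0.904 after DT (exact permutation test, two-sided p = 0.1). Border-associated macrophages also carry Itgb2, and by the study mononuclear lineages resemble each other in Itgam too. Next to these values the markers of such macrophages lay at 24.4 to 40.8 TPM after PBS and at 72.2 to 94.4 TPM after DT, with 3 of 8 tested members called higher and 0 lower. What part these macrophages or the remaining microglia had in Itgb2, Itgam or their ratio was not tested. The other leukocyte alpha chains Itgal and Itgae had at most 8 reads in any library, and Itgax and Itgad had none.

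Over 14 ratios of partner chains, alternative chains or summed chains, 4 did not overlap between the groups. These were Itgav to Itgb8 and the 3 integrin ratios given above with the smallest p, of which those to Itgb1 and Itgb4 share Itga6. Of single genes tested, 8.75% lay higher and 7.57% lower without overlap in CPM. Adjusted over the 14 ratios (Benjamini-Hochberg), the exact permutation test of each of the 4 had p = 0.35, and 3 against 3 libraries cannot reach 0.05.

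Among the laminins, the alpha 2, beta 2 and gamma 1 chains were the most expressed and their groups overlapped. Lamb2, on chromosome 9 from 108479736 to 108490530 (plus strand), stood at 129, 135 and 139 TPM after PBS and at 138, 129 and 139 TPM after DT. Lama2, the alpha chain of the parenchymal basement membrane that astrocytes form, stood at 89.0, 73.4 and 82.1 TPM after PBS and at 80.5, 70.2 and 76.0 TPM after DT. Lamc1, the gamma chain of most laminins, stood at 69.6, 51.9 and 69.5 TPM after PBS and at 60.7, 62.7 and 72.3 TPM after DT. In all 3 the groups overlapped. The log2 fold changes were -0.0025 (interval -0.14 to 0.14), -0.12 (-0.34 to 0.10) and 0.03 (-0.26 to 0.32), so for these chains a change by 2-fold lay outside the interval.

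Lama4 and Lama5, the alpha chains of the endothelial basement membrane, lay between 21.3 and 28 TPM and between 8.72 and 10.8 TPM. The endothelial markers beside them summed to 973 to 1537 TPM after PBS and 825 to 1003 TPM after DT, with 15 of 15 below a fold change of 0 and 0 called. Lamc3 lay between 14.0 and 23.2 TPM and Lama1, a chain of the meningeal side, between 1.91 and 4.07 TPM. Lama3, an alpha chain of epithelial laminin, had the smallest p of the laminins. It stood at 10.3, 13.1 and 14.8 TPM after PBS and at 11.2, 9.31 and 11.2 TPM after DT, with overlap, a log2 fold change of -0.27 (standard error 0.14) and an adjusted p of 0.534 from limma. Lamb3, a beta chain of epithelial laminin, was read at most 16 times in any library.

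Lamb1 gave a second case of DT replicate 3 standing above the rest. It stood at 13, 13.6 and 13.9 TPM after PBS and at 13.8, 13.3 and 19.5 TPM after DT, and the ratio of Lamb2 to Lamb1 was at least 9.65 in 5 libraries and 7.13 in DT replicate 3. Without that library, its log2 fold change of 0.17 became -0.000105. The other laminin ratios did not separate the groups. Summed over the family, beta chains were 1.58 to 2.23 times the gamma chains and alpha chains 1.33 to 1.82 times.

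Collagens made up most of the members, and most of them were low. Besides Col4a1 and Col4a2, only Col11a2, Col9a3, Col16a1, Col4a5, Col23a1, Col5a3, Col27a1, Col8a2 and Col1a2 had a mean of 10 TPM or more after PBS. Col11a2, a minor fibrillar chain known from cartilage, had the highest mean, with 82.5, 147 and 117 TPM after PBS and 113, 102 and 81.1 TPM after DT. Its range overlapped that of Col4a1, which was higher in PBS replicate 1 and DT replicate 3, so the order of these 2 was not set. The groups overlapped widely, with a log2 fold change of -0.21 (interval -0.65 to 0.23) that was -0.42 without PBS replicate 1 and -0.03 without PBS replicate 2. Its fibrillar partners Col11a1 and Col2a1 lay at 4.71 to 7.02 TPM and 1.3 to 2.77 TPM. Col9a3, at 40.9 to 56.7 TPM, likewise stood well above Col9a2 (2.42 to 6.30 TPM) and Col9a1 (0.471 to 1.16 TPM), the other chains of collagen IX, which decorates fibrils.

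The chains of interstitial fibrils, made mainly by fibroblasts, were present at low level in both groups. Col1a2 lay between 8.33 and 14.0 TPM, Col1a1 between 6.43 and 8.29 TPM and Col3a1 between 3.53 and 4.84 TPM. Their log2 fold changes were 0.03 (interval -0.44 to 0.50), -0.08 (-0.36 to 0.20) and 0.05 (-0.34 to 0.44). Fibroblast markers lay at 374 to 444 TPM after PBS and at 485 to 543 TPM after DT, with Igfbp5 as the 1 of 13 tested that was called higher and 0 called lower. Igfbp5 alone stood at 155 to 168 TPM after PBS and at 246 to 285 TPM after DT. Of the 13 markers, 7 had fold changes above 0 and 6 below, with a median log2 fold change of 0.01.

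The collagen chains nearest to the threshold had their higher levels after DT. Col16a1, on chromosome 4 from 130047840 to 130099283 (plus strand), encodes a chain associated with fibrils and was singled out after its values had been seen. It stood at 39.7, 34.0 and 31.3 TPM after PBS and at 48.7, 57.1 and 45.2 TPM after DT, from 1209 to 3043 reads per library. All DT values exceeded all PBS values, with a log2 fold change of 0.51 (standard error 0.11, interval 0.25 to 0.77). Over all genes the adjusted p was 0.125 from limma and 0.00298 from DESeq2 on the recovered reads, and without 1 library the fold change lay between 0.43 and 0.62.

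Col5a3, on chromosome 9 from 20770050 to 20815067 (minus strand), encodes a chain of collagen V, which regulates the width of fibrils. It stood at 12, 14.7 and 12.2 TPM after PBS and at 17.1, 17.3 and 17.9 TPM after DT, without overlap and from 550 to 1076 reads. Its log2 fold change was 0.42 (standard error 0.09, interval 0.21 to 0.63), with the smallest p of all members (limma, unadjusted p = 0.0015, adjusted p = 0.117). DESeq2 gave an adjusted p of 0.0162. The other collagen V chains had log2 fold changes of 0.31 (Col5a2, standard error 0.10) and 0.37 (Col5a1, standard error 0.21), with overlap for Col5a1 and none for Col5a2.

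Further collagens without overlap, named after their values had been seen, were Col27a1, Col8a2 and Col19a1. The fibrillar chain Col27a1 stood at 10.04, 15.1 and 11.7 TPM after PBS and 16.8, 18.4 and 15.3 TPM after DT. Col8a2, a network-forming chain, stood at 11.2, 12.9 and 11.8 TPM and at 14.8, 15.6 and 21.9 TPM. Col6a5 showed the same high value in DT replicate 3, at 20.8 TPM against 11.0 and 11.0 TPM in the other DT libraries and 7.09 to 10.6 TPM after PBS. Without that library, the log2 fold changes of Col8a2 and Col6a5 were at their lowest, 0.34 in place of 0.51 and 0.39 in place of 0.70. Itgb4, Lamb1, Col8a2 and Col6a5 were picked for their high value in DT replicate 3, where 19 of the 67 tested members (28.4%) and 20.9% of all genes tested had their highest TPM. Such an excess was not particular to that library, since PBS replicate 3 held the highest TPM of 18 members (26.9%) and of 16.1% of all genes. Only Col8a2 of the 4 picked chains had the order of the ependymal sums within both groups, as did 3 of 67 members (4.48%) and 5.52% of all genes. The neuron marker sums had the same order as the ependymal sums.

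Lower collagens were sparse. Col14a1, a fibril-associated chain, had the smallest p among them and stood at 1.83, 2.07 and 2.21 TPM after PBS and at 0.939, 1.44 and 1.49 TPM after DT, from 49 to 149 reads. The groups did not overlap, with a log2 fold change of -0.67 (standard error 0.21, limma, adjusted p = 0.337). Col24a1 had at most 26 reads in any library. Col8a1, the partner of Col8a2, had a fitted log2 fold change of 1.12 with a wide interval (-0.06 to 2.29). It stood at 1.47, 4.90 and 1.38 TPM after PBS and at 4.30, 8.74 and 2.93 TPM after DT. The 11 choroid plexus markers summed to 398, 2054 and 112 TPM after PBS and to 3470, 2362 and 1274 TPM after DT, all 11 with fold changes above 0 and 0 called. Most of each sum was Ttr alone, at 358, 1968 and 80.2 TPM after PBS and 3351, 2257 and 1190 TPM after DT. The order of the sums was thus that of Ttr. Both Col8a1 and the marker sum were highest in PBS replicate 2 within its group. After DT the marker sum was highest in replicate 1 and Col8a1 in replicate 2, and the part of choroid plexus in Col8a1 was not tested.

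**Figure D2:**
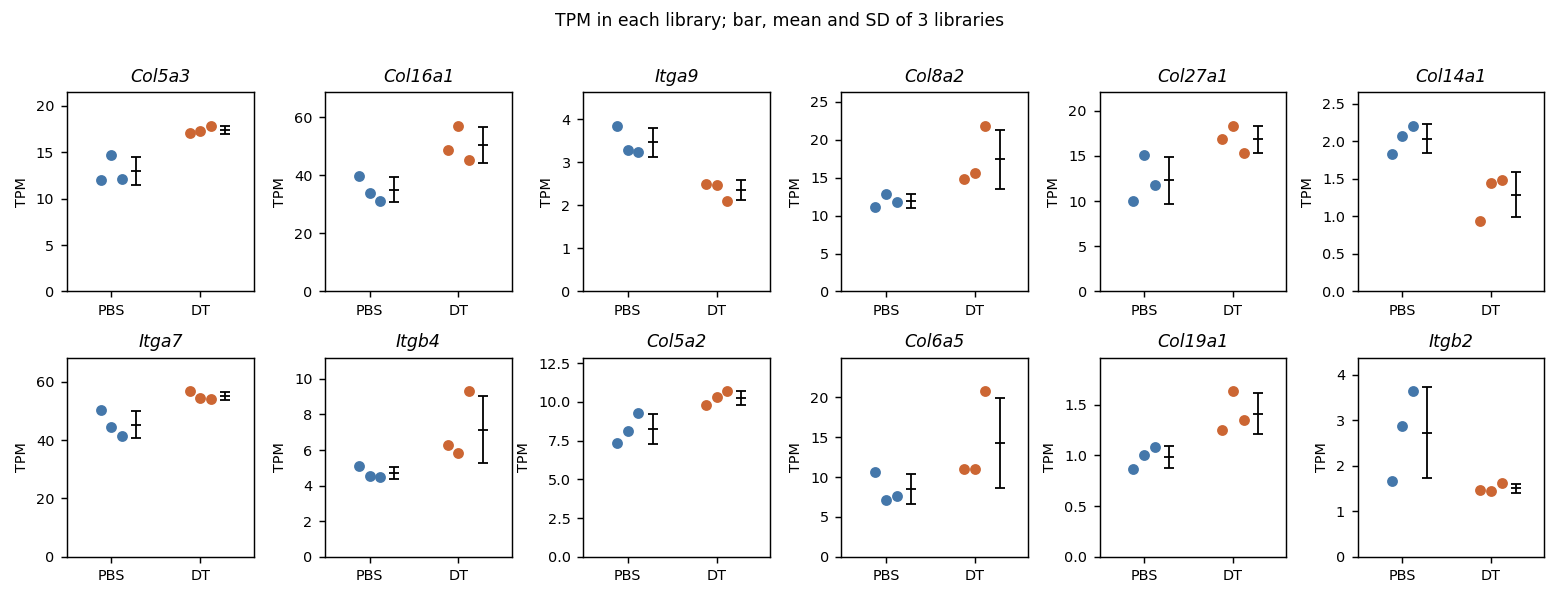
TPM in each library for the 12 members with the smallest p between PBS (blue) and DT (orange), each axis starting at 0, with the mean and SD of 3 libraries as a bar. The groups do not overlap in TPM for any of the 12, as for Col5a3 with 12 to 14.7 against 17.1 to 17.9 TPM. Because the 12 were picked by p between these same groups, this lack of overlap largely follows from the choice. In CPM the groups overlap for Col6a5, and 8.75% of all genes tested lay higher and 7.57% lower without overlap. None of the 12 passed the threshold of limma over all genes.

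The question of which members changed after DT was answered over all 15137 genes tested, with the Benjamini-Hochberg adjustment over all of them. Called by limma at an adjusted p under 0.05 were 0 members higher and 0 lower, where 0.555% of all genes tested were called higher and 0.159% lower. The quasi-likelihood test of edgeR also called 0 and 0, where it called 87 of all genes higher and 24 lower. DESeq2 called 2 higher, Col16a1 and Col5a3, and 0 lower, where 1.5% of its genes were called higher. At an unadjusted p under 0.05, limma gave 9 members higher and 3 lower, that is 17.9% of those tested against 10.4% of all genes, with backgrounds of 5.91% higher and 4.51% lower. Counts of 9 and 3 were also given by edgeR and DESeq2 on the same libraries. Over all 15137 genes these were 900 higher and 653 lower with edgeR and 861 and 618 with DESeq2.

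In CPM, 9 of the 67 tested members lay higher in every DT library than in every PBS library and 4 lay lower, where 8.75% and 7.57% of all genes did. The 9 were Col5a3, Col16a1, Col8a2, Col27a1, Itga7, Itgb4, Col5a2, Col19a1 and Itga5, and the 4 were Itga9, Col14a1, Itgb2 and Col24a1. By family, the counts at an unadjusted p under 0.05 were 7 higher and 1 lower among 40 collagens, 1 and 1 among 11 integrin alpha chains, 1 and 1 among 6 integrin beta chains and 0 and 0 among 10 laminins (limma). The median log2 fold change was 0.13 for the collagens, 0.12 and 0.08 for the integrin alpha and beta chains and -0.01 for the laminins, beside -0.01 for all genes tested. Only the collagen median kept its sign without any 1 library (0.07 to 0.19). That of the alpha chains was -0.07 without DT replicate 3, -0.00014 without DT replicate 2 and -0.0076 with a filter at 2 CPM, and that of the beta chains -0.12 without DT replicate 3 and -0.06 without PBS replicate 2. Fold changes above 0 were found for 26 of 40 collagens, 6 of 11 integrin alpha chains, 4 of 6 integrin beta chains and 4 of 10 laminins. Of all 15137 genes tested, 7366 had a fold change above 0.

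For 49 of the 67 tested members (73.1%) the 95% interval of the fold change lay within 2-fold in either direction, as for 86.0% of all genes tested. Wide intervals were seen for chains with few reads, such as Col24a1. The 6 members under the filter were Col17a1, Col22a1, Col6a4, Col6a6, Itgb6 and Lamb3. Col22a1 had 4, 0 and 0 reads after PBS and 10, 14 and 21 reads after DT, which did not overlap either, and in the fit without a filter its adjusted p was 0.174 (limma). Itgb6, an epithelial beta chain, had no read in 5 libraries and 3 reads in DT replicate 3.

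**Figure D3:**
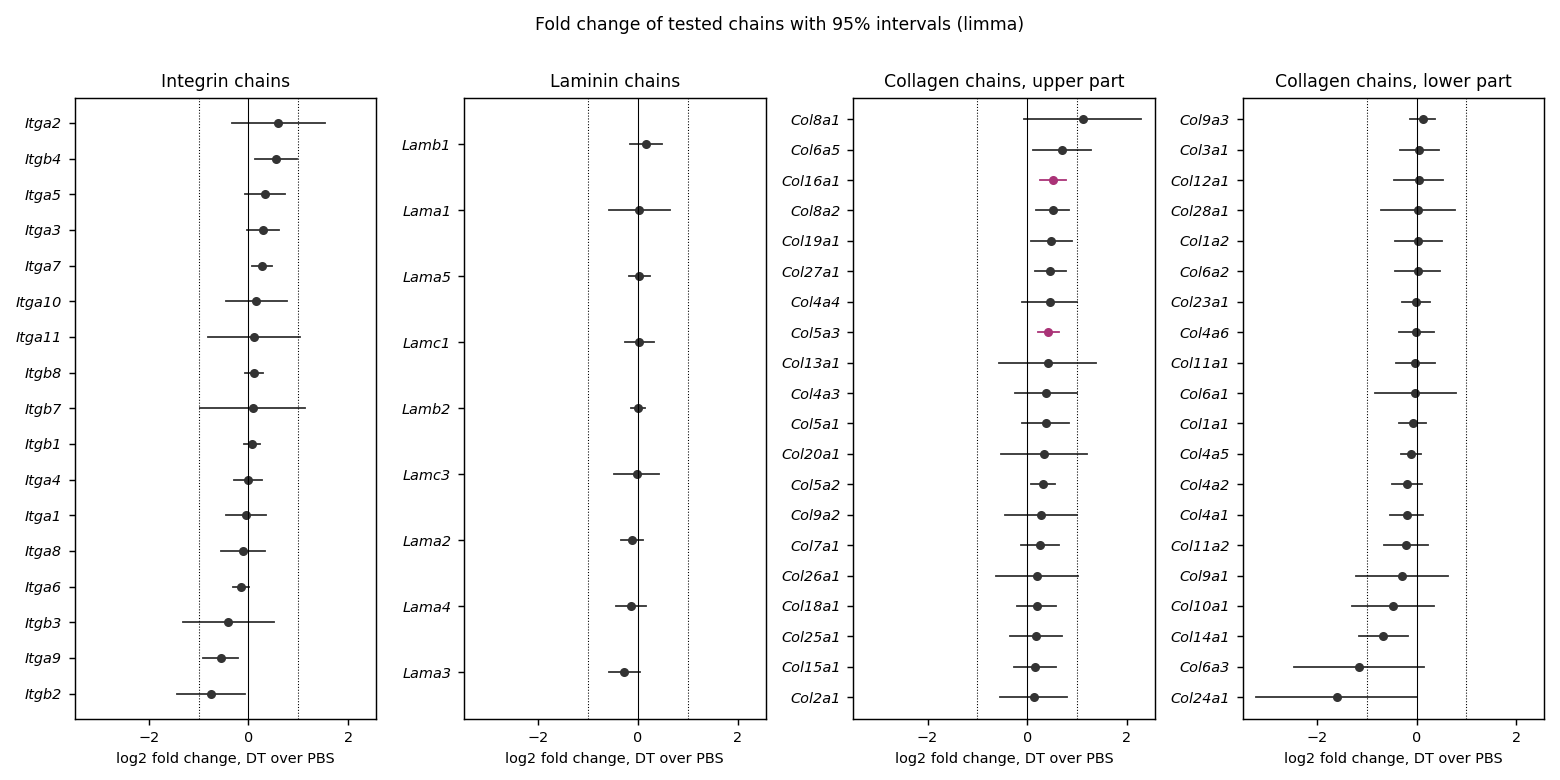
Log2 fold change of DT over PBS (limma, 3 libraries each) for tested chains with 95% intervals, and dotted lines at a change by 2-fold. Col16a1 (0.51) and Col5a3 (0.42), in colour, are those that DESeq2 called, and the intervals of Lamb2, Itgb1 and Itgb8 are narrow and include 0.

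The genes around these chains were read from lists written for this purpose. Of 28 integrin adaptor and focal adhesion genes, 27 were tested and 0 were called, with a median log2 fold change of -0.04. Fermt2, a kindlin that activates integrins, was the most expressed at 390 to 457 TPM. Of 31 tested genes for other integrin ligands and basement membrane proteins, 1 was called higher and 0 lower. That was Icam1, the ligand of leukocyte integrins, which rose from 6.10, 7.47 and 8.68 TPM to 15.9, 15.7 and 15.7 TPM (limma, log2 fold change 1.08, adjusted p = 0.0174). Icam1 lost its call in 5 of 16 alternatives, those without the variance trend, PBS replicate 2 or any 1 of the DT replicates, with adjusted p-values up to 0.0961, while Cd44 and Timp1 below were called in every alternative that tested them. Mfge8, a secreted ligand of alpha-v integrins, was the most expressed at 1850 to 2436 TPM, with no overlap and a log2 fold change of -0.25 (limma, adjusted p = 0.362).

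Among 14 tested laminin and collagen receptors that are not integrins, 1 was called higher and 0 lower. Cd44, a receptor for hyaluronan that also binds collagen, rose from 5.99, 8.35 and 8.94 TPM to 26.3, 25.3 and 27.3 TPM (limma, log2 fold change 1.75, adjusted p = 0.000881). Sdc4, a syndecan that acts beside integrins, was the most expressed at 607 to 812 TPM, with a log2 fold change of 0.29 (limma, adjusted p = 0.172). No collagen maturation gene was called among 30 tested, of which Ppib, a proline isomerase of the endoplasmic reticulum, was the most expressed at 562 to 622 TPM. Of 16 tested matrix proteases and inhibitors, 1 was called higher and 0 lower. Timp1, an inhibitor of metalloproteases, was listed at 0 in every PBS library and rose to 11.3, 9.70 and 9.72 TPM after DT (limma, adjusted p = 0.00072). Timp3, an inhibitor bound to the matrix, was the most expressed of this list at 418 to 457 TPM, with a log2 fold change of -0.06 (limma, adjusted p = 0.787). Over the 5 lists, 3 of 118 tested genes were called, each of them higher, where 0.555% of all genes tested were called higher and 0.159% lower. The lists were written with earlier results of these data known.

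Within the groups, the libraries of several members had the order of the mural cell markers. The 12 mural cell markers, for pericytes and smooth muscle, summed to 1317, 949 and 1448 TPM after PBS and to 1115, 1241 and 1551 TPM after DT. In each group 15 of the 67 tested members (22.4%) had that same order of the 3 libraries, as did 4.32% of all genes tested. They included Col4a1, Col4a2, Itga1, Lama4 and Lamc3, with at least 714 reads per library each, and 10 lower chains. This comparison was chosen after the values had been seen and is a description, made beside 10 other marker lists. The order of the endothelial markers was that of 6 members (8.96%, against 6.14% of all genes), and the leukocyte markers had the same order. The order of the ependymal markers was that of 3 members (4.48% against 5.52%), and the neuron markers had the same order. Neither order thus belonged to a single cell type. The order of the oligodendrocyte lineage markers was that of 4 members (5.97% against 3.71%). For the choroid plexus markers this was 1 (1.49% against 3.32%) and for the fibroblast markers 0 (against 1.61%). The astrocyte markers gave 1 (1.49% against 2.03%), the microglia markers 1 (1.49% against 1.70%) and the border-associated macrophage markers 0 (against 1.78%). In the mural markers the groups overlapped, with 6 of 12 fold changes above 0 and 0 called.

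**Figure D4:**
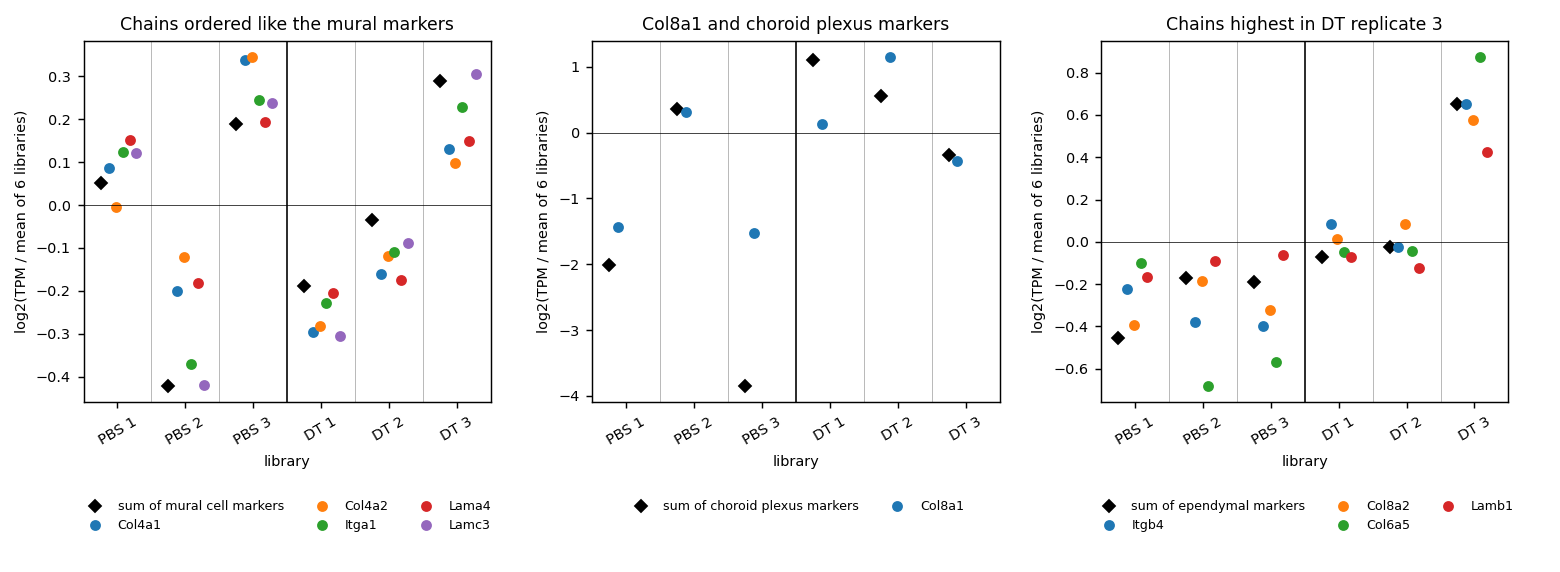
TPM in each library relative to the mean of the 6 libraries, on a log2 scale, for members (circles) beside the summed markers of a cell type (black diamonds), with a black line between PBS and DT. In the left panel, the mural sum and all 5 chains were lower in PBS replicate 2 than in the other PBS libraries, Col8a1 and the choroid plexus sum were highest in PBS replicate 2 within its group but not in the same library after DT, and Itgb4, Col8a2, Col6a5 and Lamb1 were highest in DT replicate 3.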

How the data were processed

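RNA of hippocampal astrocytes was sequenced in 3 PBS and 3 DT libraries. The authors trimmed reads with Trim Galore 0.5.0, mapped them to mm10 with HISAT2 2.1.0 using strand, removed ribosomal reads with bedtools 2.25.0, quantified genes with StringTie 1.3.5 and tested with edgeR 3.24.3. They deposited a signal (CPM of scaled libraries, coverage in reads per gene) and TPM. The design had assumed plain CPM, but the columns sum to 980428 to 1026170, by factors of 0.974 to 1.02. Whole reads could be recovered for 100% of values from 1 to 100 reads. Columns with the authors' p-values, q-values and fold changes were not used.

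Values were taken as log2(CPM + 0.1), and genes whose mean CPM reached 0.5 were compared with limma 3.58.1 in R 4.3.3 (variance trend, two-sided, Benjamini-Hochberg over all genes tested, called at adjusted p under 0.05). This scale shrinks the changes of genes with no read in 1 group, as for Siglech, at -4.08 against -8.44 with edgeR. Low members did not all follow, as for Col8a1, at 1.12 against 1.01, and Col24a1, at -1.60 against -1.47. TPM served for levels. Both tables list genes in different orders and were joined by symbol, and all 73 members matched GENCODE M21. The fit was repeated with a pseudocount of 0.5 or 1, without the filter or with a minimum of 2 CPM, on TPM, after quantile normalization, without the variance trend, with a replicate block, with edgeR 4.0.16 and DESeq2 1.42.0 on recovered reads, and with each library left out. The fits were tested on simulated data.

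The members and lists were chosen with earlier results of these data known. Named are members past the threshold, the 3 highest after PBS and the smallest p in each direction per family, assembly partners, and in each list the called genes and the most expressed. Other names were chosen after their values were seen and are marked so where a result rests on them. Replicates are separate pools. Same-numbered libraries had correlations of deviations of 0.115, 0.0105 and 0.118, against -0.124 to 0.0115 for differently numbered ones. The labels do not say whether a number marks the same experiment in both groups, so no pairing was assumed. Some genes that fit the patterns are not reported here.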

Additional observations from a re-analysis of the deposited data

How the results depend on the processing

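For 19 named members over 16 alternatives, 290 values stayed on the same side of 0 and of the threshold, 12 changed direction and 2 passed the threshold. Over all genes, dropping the variance trend gave 35 called higher and 11 lower, and DESeq2 gave 227 and 98. Leaving out 1 library at a time gave 39 to 72 higher and 9 to 20 lower. Without DT replicates 1 and 2, those higher numbered 39 and 40, and without PBS replicates 1, 2 and 3 and DT replicate 2, those lower numbered 11, 9, 10 and 10. Members were called under 1 alternative, DESeq2, with 2 higher, Col16a1 (0.51, adjusted p = 0.00298) and Col5a3 (0.42, adjusted p = 0.0162), against ranges over the alternatives of 0.00298 to 0.406 and 0.0162 to 0.340. Fold changes near 0 changed direction. Lamb2 was 0.0102 with TPM, 0.00739 with quantile normalization, 0.00186 with edgeR and 0.000296 with DESeq2. In the fits without 1 library, Lamb2 ranged from -0.0340 to 0.0453, Itga1 from -0.246 to 0.0732, Lamc1 from -0.121 to 0.115, Lamb1 from -0.000105 (without DT replicate 3) to 0.281 the integrin alpha median from -0.0674 to 0.223, the integrin beta median from -0.115 to 0.126 and the laminin median from -0.163 (without PBS replicate 2) to 0.0867. Why these values changed was not tested, other than that leaving out a library leaves fewer samples. The replicate block gave 79 genes higher and 30 lower, 0 members in either direction and adjusted p = 0.0718 for Col16a1. The block changed no call of a member. Depth limits chains under 100 reads, and 3 libraries per group limit each interval.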
